A study of Mus musculus with 28 samples.

Results

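Transcript levels of 8 genes of the renin-angiotensin system were examined in liver and kidney of mice gavaged with nicotinamide mononucleotide (NMN), a precursor of the coenzyme NAD. The genes were taken by name (Agt, Ren1, Ace, Agtr1a, Agtr1b, Enpep, Mme and Anpep) and are 8 of the 54446 genes in the deposited count tables. Male C57BL/6 mice (C57BL6J in the study's methods) aged 8 weeks were gavaged for 7 days with NMN or with water. NMN was given at 1340 mg/kg/d in 1 gavage a day or at 2680 mg/kg/d in 2 gavages a day. In each organ polyA-selected RNA was sequenced from 4 NMN and 4 water mice of the 1340 mg/kg/d schedule and from 3 NMN and 3 water mice of the 2680 mg/kg/d schedule, giving 28 libraries. All mice were wild-type as far as the labels say, and the water mice of each schedule were gavaged as often as the NMN mice beside them. Dose and number of gavages changed together between the schedules and cannot be told apart. The study's methods do not say which sequencer read which libraries. Differences of day or sequencing between the schedules cannot be told apart from the schedule either. Between 12688324 and 33872983 reads per library were counted on genes.

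The labelled organs carried their defining transcripts. Alb, the serum albumin of hepatocytes, had a mean of 75384 CPM (reads of a gene relative to all reads counted on genes in a library) in the 1340 mg/kg/d water livers. Slc34a1, the phosphate transporter of the proximal tubule, had a mean of 6688 CPM in the 1340 mg/kg/d water kidneys. Traces of the other organ were present in the 1340 mg/kg/d libraries. The 8 1340 mg/kg/d livers held 92 to 150 Slc34a1 reads each, and of the 6 2680 mg/kg/d livers the first NMN mouse held 99 and the others no more than 27. The 1340 mg/kg/d water kidneys held 71.7 to 105 CPM of Alb, against 9.80 to 11.6 CPM in the 2680 mg/kg/d water kidneys. Whether these reads came from tissue of the other organ or from reads assigned to the wrong library in sequencing was not tested. What such traces would carry of Ren1, Ace and Agt is given beside these genes.

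The renin-angiotensin system is a cascade of peptides that raises blood pressure and retains salt. Angiotensinogen (Agt), secreted mostly by the liver, is cut by renin (Ren1), an enzyme released by juxtaglomerular cells at the glomerular arteriole of the kidney, to angiotensin I. Angiotensin-converting enzyme (Ace) makes angiotensin II, which acts through the type 1 receptors (Agtr1a and Agtr1b in rodents). Aminopeptidase A (Enpep), neprilysin (Mme) and aminopeptidase N (Anpep), all abundant in the brush border of the proximal tubule, trim or degrade the peptides.

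The start regions of Ren1 and Agt are shown because these members lie at opposite ends of the comparison between the organs. The 100 bases before the annotated start in RefSeq (GRCm38.p6) run 5′ to 3′ on the gene's strand, with the TATA box letters TATAAA in capitals. Ren1 lies at chr1:133350574-133350673 on the plus strand and Agt at chr8:124569707-124569806 on the minus strand.
Ren1: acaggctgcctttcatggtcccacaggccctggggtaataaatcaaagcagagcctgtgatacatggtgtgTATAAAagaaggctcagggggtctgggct
Agt: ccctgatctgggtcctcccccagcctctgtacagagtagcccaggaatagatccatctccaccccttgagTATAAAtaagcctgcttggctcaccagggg
The letters stand 29 to 24 bases before the start in Ren1 and 30 to 25 bases before it in Agt. Searched on both strands of 250 bases, TATAAA is present in 12.37% of 32851 mouse promoters. Agtr1b also holds it, and Ace and Enpep hold it on the opposite strand, while Agtr1a was not searched. These matches describe the letters only.

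In water mice Agt was highest in liver, whereas Ren1 and Ace were high in kidney and near 0 in liver. Levels are compared between genes as TPM, a relative transcript number that corrects for transcript length. In the 7 livers Agt was the highest member with a mean of 874 ± 85.5 TPM (SD, n = 7). Anpep followed with 71.5 ± 5.05 TPM, Agtr1a with 49.5 ± 12.3 TPM and Enpep with 36.1 ± 9.14 TPM. The range of Agtr1a overlapped that of Anpep and that of Enpep. Mme had 4.23 ± 0.796 TPM and Ace 0.393 ± 0.184 TPM. Ren1 and Agtr1b were at or near 0 in liver. The kidneys had no member that stood far above the rest. Anpep had 107 ± 14.6 TPM, Agt 88.5 ± 25.4 TPM, Enpep 82.6 ± 12.1 TPM, Ace 82.0 ± 16.8 TPM and Ren1 65.0 ± 15.9 TPM (SD, n = 7 each). Each of these overlapped its neighbour in that order. Agtr1a with 37.9 ± 5.30 TPM and Mme with 32.5 ± 7.15 TPM were lower and also overlapped, and Agtr1b had 0.109 ± 0.179 TPM.

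**Figure D1:**
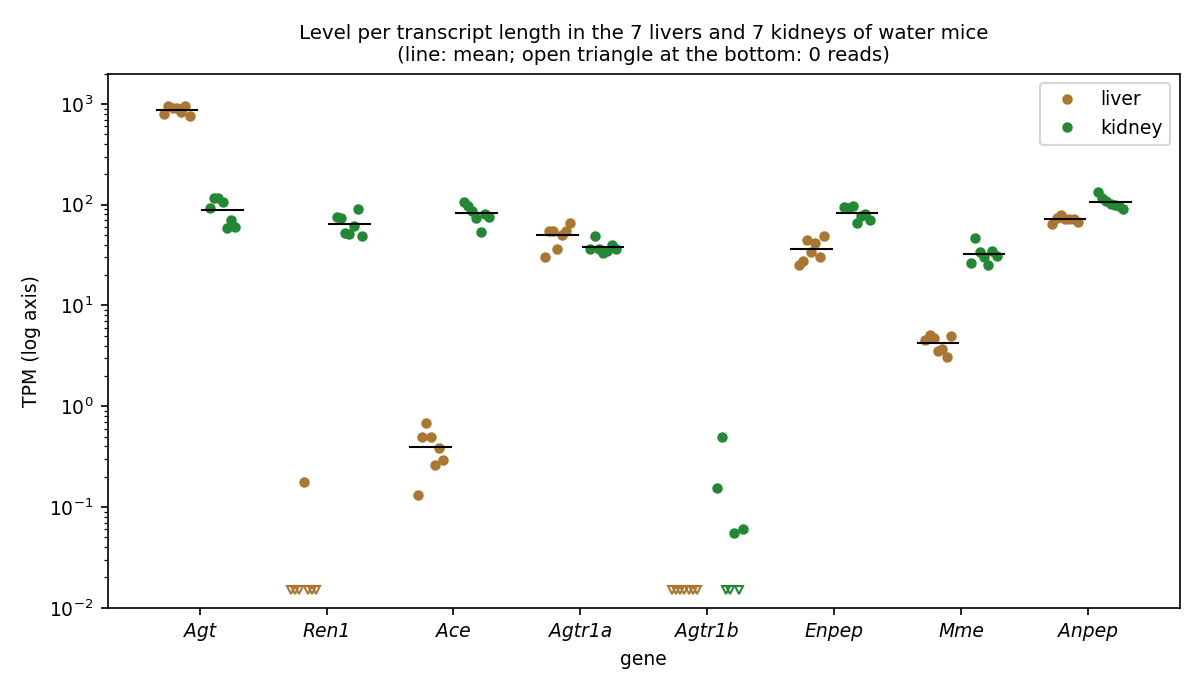
TPM of each gene on a log axis in the 7 livers and 7 kidneys of water mice, one point per library, with the mean as a line and open triangles for libraries with 0 reads. Agt stands alone at the top in liver (mean 874 TPM), whereas Ren1 and Ace are at kidney levels of 65.0 and 82.0 TPM and close to 0 in liver.

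The labels do not say whether liver and kidney libraries of the same number came from the same mouse. Of the 7 members tested between the organs in water mice, 6 passed (adjusted p under 0.05, quasi-likelihood test of edgeR), 3 higher and 3 lower in kidney. The background is wide, since 76.3% of all 15912 tested genes passed (41.8% higher and 34.4% lower in kidney), and the members' share is near it. Ren1 had 5027 reads over the 7 kidneys and 2 over the 7 livers, a ratio of 2537 in CPM with an exact 95% interval of 702 to 20956 that covers counting error only. With the TMM factors of edgeR, Ace, the converting enzyme, was 97.4-fold higher in kidney (log2 6.61, SE 0.198, adjusted p = 3.52e-16), and Mme was 3.58-fold higher (log2 1.84, SE 0.122, adjusted p = 5.09e-11). On that scale Agt was lower in kidney by a log2 difference of -4.46 (SE 0.117, adjusted p = 3.12e-17), and Agtr1a by -1.47 (SE 0.116, adjusted p = 7.85e-10). In CPM, the scale of the Ren1 ratio, kidney over liver was 191 for Ace and 7.02 for Mme. Liver over kidney was 11.0 for Agt and 1.42 for Agtr1a.

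The scale on which organs are compared moved every value. Dividing by library totals in place of TMM factors moved the median gene by 0.97 (log2) toward kidney. Enpep was 0.11 (SE 0.121, adjusted p = 0.433) with TMM factors and 1.08 (adjusted p = 3.03e-07) with library totals. Anpep was -0.53 with TMM factors (adjusted p = 1.25e-05) and 0.45 with library totals (adjusted p = 2.23e-05), so its direction between the organs depends on the scaling. The 5 others kept their direction, at 10.8 for Ren1, 7.57 for Ace, 2.82 for Mme, -0.50 for Agtr1a and -3.48 for Agt with library totals. Agtr1b, the second type 1 receptor gene of rodents, had 10 reads over the 7 water kidneys and 0 in all 14 liver libraries, and was too low to test. Agtr1a and Agtr1b share 33 stretches of 50 bases in their annotated transcripts (1.13% of those of Agtr1a). Reads lying wholly within these could not be told apart.

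No member differed between NMN and water mice past an adjusted p of 0.05 by edgeR in either organ and either schedule. The fold changes of edgeR use TMM factors, whereas CPM and the overlap of groups rest on library totals, so these scales can differ. In the 1340 mg/kg/d livers 0 of 6 tested members passed, 0 had an unadjusted p under 0.05 (6.86% of all tested genes did), and DESeq2 called 0, against a background of 0.0161% of tested genes passing in edgeR and 0.569% of those with an adjusted p in DESeq2. None of the 6 separated NMN from water livers without overlap there, as 3.94% of tested genes did. In the 2680 mg/kg/d livers 0 of 6 passed, 3 had an unadjusted p under 0.05 (24.6% of all tested genes did) and DESeq2 called 0, although 7.08% of all tested genes passed there in edgeR and 11.6% in DESeq2. In the 1340 mg/kg/d kidneys 0 of 7 passed, 1 had an unadjusted p under 0.05 (8.94% of all tested genes did) and DESeq2 called 0, beside 0.12% of tested genes in edgeR and 1.26% in DESeq2. In the 2680 mg/kg/d kidneys 0 of 7 passed in edgeR, 1 had an unadjusted p under 0.05 (11.1% of all tested genes did) and DESeq2 called 1, beside 0.4% of tested genes in edgeR and 1.53% in DESeq2. The median log2 fold change of the tested members lay between -0.04 and 0.09 in these 4 comparisons, and that of all tested genes between -0.003 and 0.004.

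**Figure D2:**
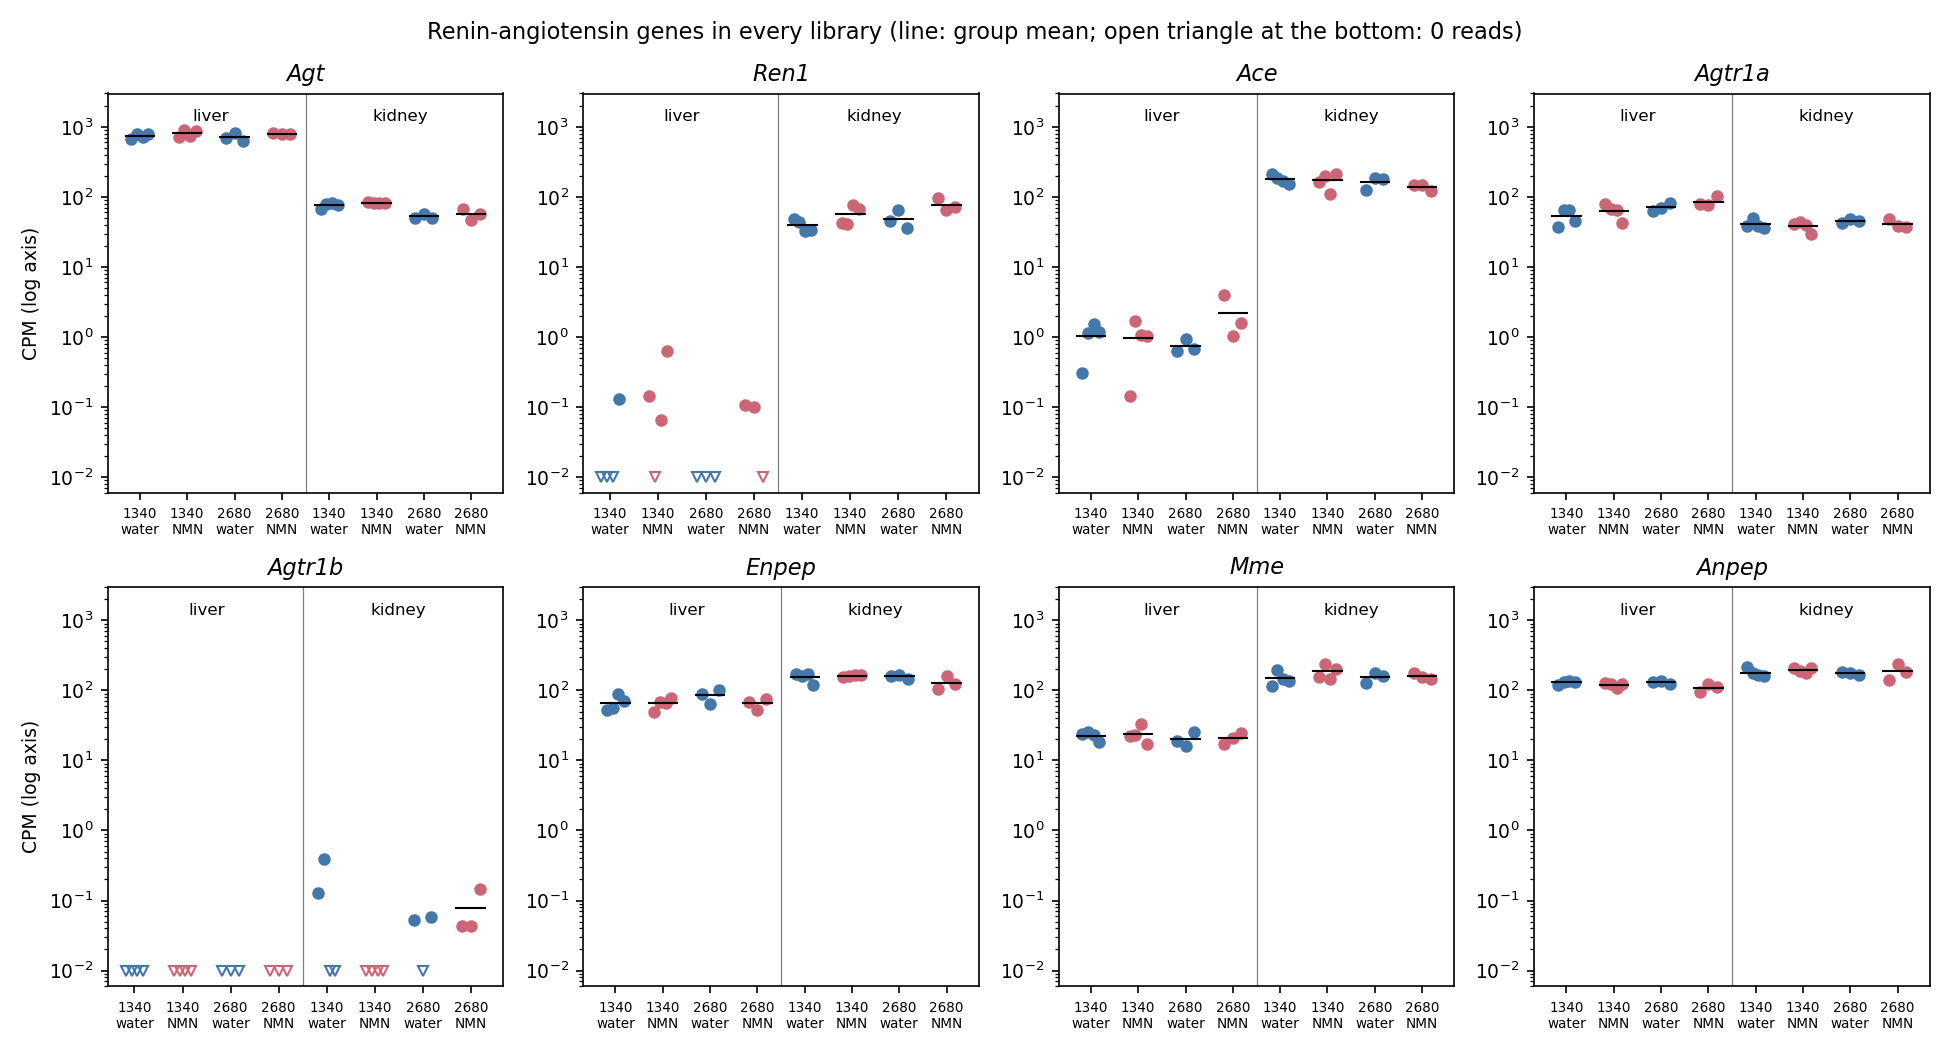
CPM of each gene on a log axis in all 28 libraries, grouped by organ, dose in mg/kg/d and treatment (blue for water, red for NMN), with group means as lines and open triangles for libraries with 0 reads. NMN and water libraries overlap in nearly every panel, and the kidney panel of Ren1 shows NMN means above water means in both schedules.

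Ren1, the enzyme that limits the rate of the cascade, was the member with the largest fold change between NMN and water kidneys in both schedules. In the 1340 mg/kg/d kidneys the water mice had 48.3, 44.5, 32.5 and 33.2 CPM and the NMN mice 42.3, 41.7, 76.0 and 66.4 CPM. Here 2 of the 4 NMN mice were above every water mouse, and the other 2 lay within the water range. In the 2680 mg/kg/d kidneys the water mice had 45.6, 66.0 and 35.9 CPM and the NMN mice 95.8, 65.3 and 72.3 CPM. Only the NMN mouse at 65.3 CPM was below a water mouse, the one at 66.0 CPM. Ren1 was 1.40-fold higher at 1340 mg/kg/d (log2 0.49, SE 0.214, 95% interval 0.01 to 0.97, adjusted p = 0.547 in edgeR) and 1.58-fold higher at 2680 mg/kg/d (log2 0.66, SE 0.23, interval 0.10 to 1.22, adjusted p = 0.374). Fitted over both schedules, the mean NMN effect on kidney Ren1 was 0.57 (SE 0.179, interval 0.18 to 0.96, unadjusted p = 0.0079, adjusted p = 0.179 in edgeR). DESeq2 put Ren1 past the threshold at 2680 mg/kg/d (log2 0.65, adjusted p = 0.0251) and in the mean over schedules (0.57, adjusted p = 0.0127) but not at 1340 mg/kg/d (0.49, adjusted p = 0.289). Without the filter on low counts, edgeR called it at 1340 mg/kg/d (0.50, adjusted p = 0.00655) and in the mean (0.58, adjusted p = 4.67e-10). Calls over all genes rose there too, from 18 to 269 at 1340 mg/kg/d and from 222 to 733 in the mean. The unfiltered fit did not call Ren1 at 2680 mg/kg/d. The call thus depended on the tool and the filter, while direction and size were nearly the same.

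Cell type markers varied between these kidneys too. The summed level of 4 podocyte genes, all detected and led by Podxl, was 463 CPM in the 1340 mg/kg/d NMN mouse with the highest Ren1. It was 209 to 354 CPM in the other 7 kidneys of that schedule. The sum in the 2680 mg/kg/d kidneys was 253 to 275 CPM with NMN and 183 to 262 CPM with water. A list of 7 mesangial, mural and stellate genes summed to 131 to 214 CPM over the 14 kidneys. The part of glomerular or mural content in the Ren1 values was not tested. In whole organs, more renin cells and more Ren1 transcript per cell cannot be told apart. Of 6 genes that mark the adrenal gland, which also expresses renin in mice, Cyp11b1, Cyp11b2 and Th had 0 reads in all 14 kidneys, and Cyp21a1 and Dbh had 1 and 2 reads in a single kidney each. The 6 together summed to 2.68 to 6.85 CPM, led by Star (mean 4.49 CPM), and the part of adrenal tissue in the Ren1 values was not tested.

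In liver, Ren1 had 0 to 8 reads per library and was not tested. The 1340 mg/kg/d NMN livers had 0.143, 0, 0.0660 and 0.631 CPM, and 1 of the 4 1340 mg/kg/d water livers had 0.132 CPM while the others had 0. The 2680 mg/kg/d livers had 0.105, 0.0999 and 0 CPM with NMN and 0 with water. The share of kidney RNA that would give the Slc34a1 reads of the 1340 mg/kg/d livers (0.0985% to 0.177%) would carry 0.0390 to 0.0700 CPM of Ren1.

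Agt, the substrate of renin, stayed near its water level in both organs. Livers of the 1340 mg/kg/d schedule had 665, 786, 728 and 780 CPM with water and 720, 894, 749 and 877 CPM with NMN, which overlap (log2 0.12, SE 0.123, adjusted p = 0.906). Livers of the 2680 mg/kg/d schedule had 706, 822 and 622 CPM with water and 808, 802 and 793 CPM with NMN (0.01, SE 0.139, adjusted p = 0.978). Mean CPM in these livers were 717 with water and 801 with NMN, a wider gap than the fold change with TMM factors gives. The 95% interval of that fold change, -0.30 to 0.31, leaves room for a change of about that size either way. In kidney, where the proximal tubule makes Agt, values at 1340 mg/kg/d were 66.6, 80.4, 82.6 and 77.9 CPM with water and 84.2, 80.8, 82.8 and 81.6 CPM with NMN. Values at 2680 mg/kg/d were 49.8, 57.7 and 50.8 CPM with water and 67.6, 46.9 and 58.0 CPM with NMN. The log2 fold changes were 0.09 (adjusted p = 0.830) and 0.12 (adjusted p = 0.741).

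Ace in kidney was 214, 188, 170 and 152 CPM in 1340 mg/kg/d water mice and 166, 201, 111 and 213 CPM in NMN mice. The NMN mouse at 111 CPM was the lowest of the 14 kidneys. In the 2680 mg/kg/d kidneys water mice had 127, 187 and 180 CPM and NMN mice 147, 148 and 123 CPM (log2 -0.25, SE 0.146, adjusted p = 0.578). In liver Ace was close to the detection limit, with 2 to 28 reads per 1340 mg/kg/d library. It was 0.309 to 1.52 CPM in the water livers of that schedule, where the kidney trace would carry 0.211 to 0.245 CPM, and 0.143 to 1.70 CPM in the NMN livers, where it would carry 0.178 to 0.320 CPM. The 2680 mg/kg/d livers had 0.631, 0.921 and 0.683 CPM with water (12 to 19 reads) and 3.95, 1.05 and 1.59 CPM with NMN (21 to 75 reads). These groups did not overlap, which was also the case for 32.1% of all tested genes in this comparison. The log2 fold change was 1.39 (SE 0.557, interval 0.17 to 2.62, adjusted p = 0.153), and 0.67 without the NMN mouse at 3.95 CPM (adjusted p = 0.511). That mouse was the 2680 mg/kg/d liver with the kidney trace, and its trace would carry 0.177 CPM of Ace. The part of that trace in the fold change was not tested. The exons of an antisense gene, Gm11651, overlap 5.58% of the exon length of Ace, and as strand was not used in counting, reads of these genes could not be told apart there.

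The type 1 receptor Agtr1a is the receptor of hepatocytes and tubules. Livers of the 1340 mg/kg/d schedule had 37.6, 65.7, 64.5 and 45.2 CPM with water and 79.6, 67.2, 64.9 and 42.9 CPM with NMN. Livers of the 2680 mg/kg/d schedule had 62.8, 69.3 and 80.6 CPM with water and 79.1, 75.6 and 102 CPM with NMN. The log2 fold changes were 0.26 (SE 0.222, adjusted p = 0.867) and 0.13 (SE 0.166, adjusted p = 0.691), and the groups overlapped in both. In kidney all values lay between 29.7 and 49.8 CPM, with log2 fold changes of -0.10 (SE 0.13, adjusted p = 0.872) at 1340 mg/kg/d and -0.14 (SE 0.0975, adjusted p = 0.650) at 2680 mg/kg/d. Agtr1b had 0 to 6 reads in each kidney.

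**Figure D3:**
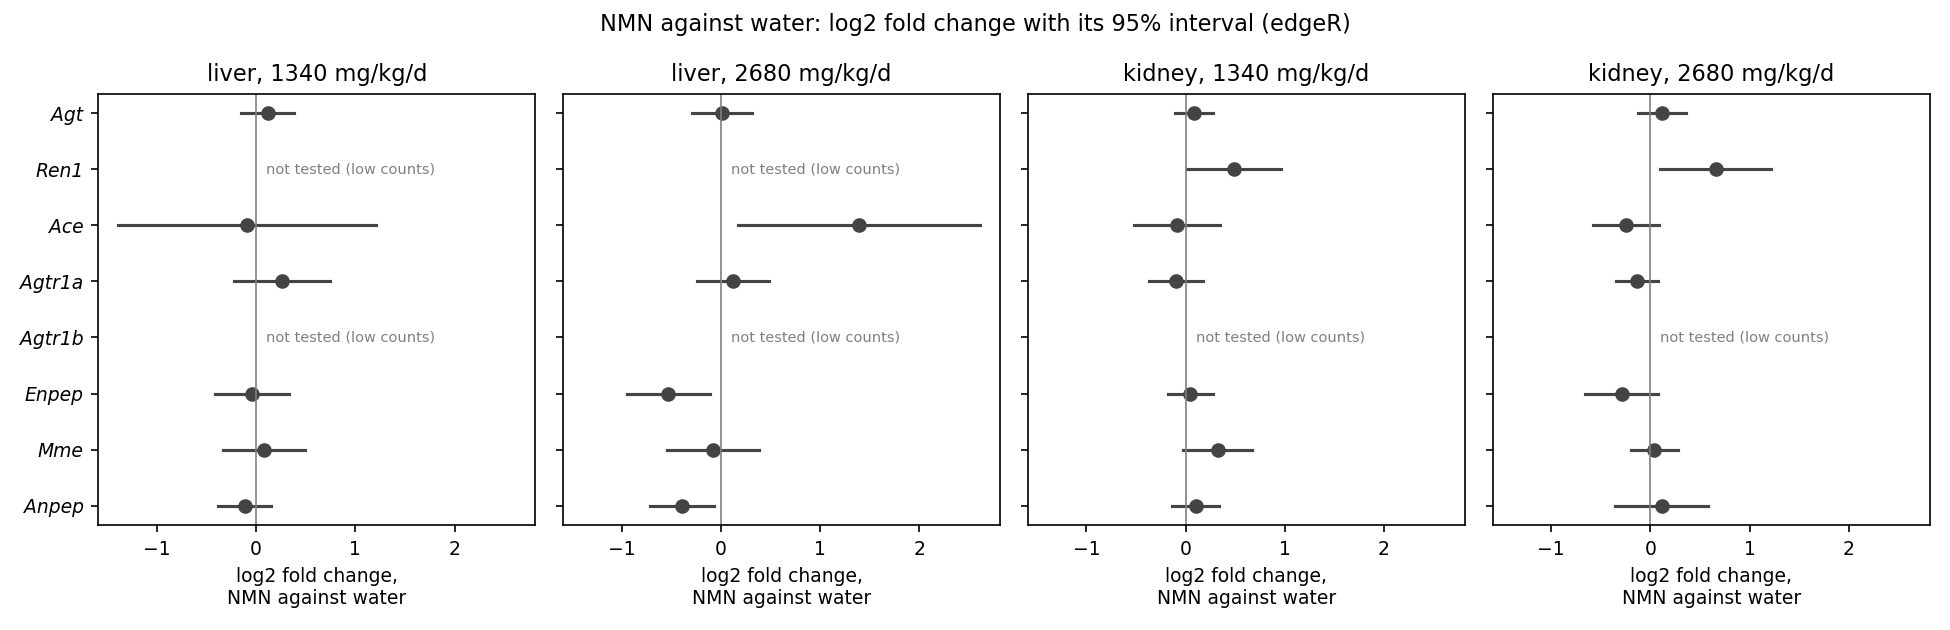
Log2 fold change of NMN against water mice for each gene (points) with its 95% interval (lines) from edgeR, in liver and kidney at 1340 and 2680 mg/kg/d. Most intervals include 0, while those of Ren1 in both kidney comparisons (from 0.01 and 0.10) and of Ace, Enpep and Anpep in the liver at 2680 mg/kg/d do not, and none passes after adjustment over all tested genes.

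The aminopeptidases had the most negative fold changes of the members in the 2680 mg/kg/d livers. Enpep, which cuts angiotensin II to angiotensin III, was at 89.3, 64.9 and 101 CPM in water mice and at 68.2, 53.0 and 75.0 CPM in NMN mice. Its log2 fold change was -0.53 (SE 0.191, interval -0.95 to -0.11, adjusted p = 0.118). It passed without the filter on low counts (-0.53, adjusted p = 0.0306) and in the fit with a replicate block (-0.52, adjusted p = 0.0343). Over all genes these fits called 1785 and 1153, against 883 in the main fit. Anpep, which cuts angiotensin III further, was at 133, 136 and 122 CPM in water mice and at 95.4, 122 and 113 CPM in NMN mice (-0.39, SE 0.148, interval -0.72 to -0.07, adjusted p = 0.133). For both genes the highest NMN livers reached into the water range. Mean CPM went from 85.2 with water to 65.4 with NMN for Enpep and from 130 to 110 for Anpep. These are smaller falls than the fold changes with TMM factors. In the 1340 mg/kg/d livers Enpep was at -0.04 (SE 0.171, adjusted p = 0.975) and Anpep at -0.12 (SE 0.123, adjusted p = 0.906). The mean NMN effects in liver were -0.28 for Enpep (SE 0.133, adjusted p = 0.197) and -0.25 for Anpep (SE 0.092, adjusted p = 0.0967). Mme, which opens another branch by making angiotensin 1-7, ranged from 15.9 to 33.1 CPM over all livers, with log2 fold changes of 0.08 (adjusted p = 0.962) and -0.08 (adjusted p = 0.856).

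In kidney the peptidases went in no common direction at 2680 mg/kg/d. Enpep was 104, 161 and 124 CPM in 2680 mg/kg/d NMN mice and 162, 166 and 148 CPM in water mice (log2 -0.29, SE 0.16, adjusted p = 0.551). Anpep was 141, 240 and 183 CPM in those NMN mice and 181, 175 and 168 CPM in water mice (0.11, SE 0.196, adjusted p = 0.883). The first NMN mouse was the lowest and the second the highest of all 14 kidneys for Anpep, so the spread within the NMN group was wider than the difference between groups. Mme at 1340 mg/kg/d was 117, 196, 146 and 135 CPM with water and 157, 239, 148 and 205 CPM with NMN (0.32, SE 0.16, adjusted p = 0.585).

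The NMN effect of the schedules did not differ detectably for any tested member. In the test of the difference (2680 minus 1340 mg/kg/d) 0 of 6 members passed in liver and 0 of 7 in kidney in edgeR, 0 in each had an unadjusted p under 0.05, and DESeq2 called 0. The background in edgeR was 0.0746% of tested genes in liver and 0.00625% in kidney, with 8.60% and 4.62% at an unadjusted p under 0.05, and DESeq2 called 0.815% and 0.0787%. For kidney Ren1 the difference was 0.16 (SE 0.356, interval -0.61 to 0.94, adjusted p = 0.999). In the mean effect over both schedules 0 members passed in liver in edgeR, 2 had an unadjusted p under 0.05 (Anpep and Enpep, beside 24.9% of all tested genes) and DESeq2 called 0, where 8.53% of all genes passed in edgeR and 11.1% in DESeq2. In kidney 0 members passed, Ren1 alone had an unadjusted p under 0.05 (beside 12.4% of all tested genes) and DESeq2 called it, where 1.39% of all genes passed in edgeR and 3.07% in DESeq2.

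Water mice of the schedules were compared to see how far the libraries differ without NMN. Number of gavages, day and sequencing cannot be told apart in this comparison. In kidney 1 of 7 tested members passed (17.3% of all tested genes did). Agt and Agtr1a had an unadjusted p under 0.05 there (beside 30.7% of all tested genes), and DESeq2 called Agt alone (beside 15.8%). In liver 0 of 6 passed (5.39%), 2 had an unadjusted p under 0.05 (beside 19.3% of all tested genes), and DESeq2 called 0 (beside 7.05%). The member called was Agt, which was 66.6 to 82.6 CPM in the 4 1340 mg/kg/d water kidneys and 49.8 to 57.7 CPM in the 3 2680 mg/kg/d ones. Its log2 difference with TMM factors was -0.38 (SE 0.101, adjusted p = 0.0133 in edgeR). The CPM rest on library totals, so their gap and this difference are on unlike scales. The call was lost without the first 2680 mg/kg/d water mouse (-0.33, adjusted p = 0.0693) or without the third (-0.36, adjusted p = 0.0575). Ren1 in kidney was at 0.47 between the water groups (2680 against 1340 mg/kg/d, SE 0.253, interval -0.08 to 1.02, adjusted p = 0.238), a value close to its NMN fold change at 1340 mg/kg/d. The share of liver RNA given by the Alb reads would carry 0.704 to 1.03 CPM of Agt in the 1340 mg/kg/d water kidneys and 0.0614 to 0.0726 CPM in the 2680 mg/kg/d ones. The 3 adipocyte genes (Ucp1 the most abundant), which mark fat, another tissue that makes Agt, summed to 7.2 to 32.1 CPM in the 1340 mg/kg/d and 66.5 to 132 CPM in the 2680 mg/kg/d water kidneys. The part of fat in the Agt values was not tested. Mitochondrial transcripts took 9.10% to 10.6% of reads in the former and 19.8% to 21.6% in the latter. The part of this difference in the Agt values was not tested.

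Further genes of the pathway were counted from a list of 18. In the 2680 mg/kg/d livers 1 of 11 tested genes passed and it rose, beside the background of 7.08%. That gene was Nln, which encodes neurolysin, a peptidase that cuts angiotensin I. It was at 19.6, 21.4 and 21.0 CPM with water and at 32.4, 37.6 and 46.2 CPM with NMN (log2 0.76, SE 0.172, adjusted p = 0.0262). Atp6ap2, the (pro)renin receptor and a subunit of the proton pump, was at 22.4, 20.8 and 22.6 CPM with water and at 38.6, 32.6 and 34.9 CPM with NMN (0.54, SE 0.148, adjusted p = 0.0516 in edgeR and 0.0309 in DESeq2). Lnpep, the angiotensin IV binding aminopeptidase, was at 0.93 (SE 0.358, adjusted p = 0.153 in edgeR and 0.0421 in DESeq2). The unadjusted p of Nln, Atp6ap2 and Lnpep in edgeR was under 0.05, as for 24.6% of all tested genes. DESeq2 called Nln as well (adjusted p = 0.00391), and it called 11.6% of all genes with an adjusted p there. In the 1340 mg/kg/d livers 0 of 11 passed in edgeR (beside 0.0161% of all tested genes). There 0 had an unadjusted p under 0.05 (beside 6.86%) and DESeq2 called 0 (beside 0.569%).

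In kidney 0 of 12 further pathway genes passed in edgeR at 1340 or at 2680 mg/kg/d (beside 0.12% and 0.4% of all tested genes). At 1340 mg/kg/d 2 had an unadjusted p under 0.05 (beside 8.94% of all tested genes) and DESeq2 called 0 (beside 1.26%), and at 2680 mg/kg/d 1 had such a p (beside 11.1%) and DESeq2 called 1 (beside 1.53%). The gene called by DESeq2 was Prcp, a carboxypeptidase that removes the last residue of angiotensin II. It was at 50.9, 47.3 and 43.6 CPM with water and 36.3, 36.5 and 32.5 CPM with NMN at 2680 mg/kg/d, with no overlap, as for 16.4% of tested genes (log2 -0.43, SE 0.0871, adjusted p = 0.0568 in edgeR and 0.00857 in DESeq2). Agtrap, a protein bound to the type 1 receptor, was at 113, 113, 124 and 119 CPM with water and 102, 92.0, 98.1 and 84.7 CPM with NMN at 1340 mg/kg/d (-0.33, SE 0.0964, adjusted p = 0.244). Its groups did not overlap, as for 5.08% of tested genes in that comparison. Mas1, the receptor of angiotensin 1-7, had 0.143 to 0.358 CPM in the 7 NMN kidneys and 0.468 to 1.24 CPM in the 7 water kidneys. These are 2 to 11 and 8 to 19 reads a library, too low to be tested within a schedule. Mas1 was tested only in the fit over the kidneys of both schedules. The filter on low counts keeps a gene by its highest libraries, and for Mas1 these were water kidneys. Its mean NMN effect in that fit was -1.31 (SE 0.364, adjusted p = 0.0790 in edgeR). With so few reads in the NMN kidneys, that value describes a gene near the detection limit.

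Genes of renin release and juxtaglomerular cells (14 listed) had 10 positive fold changes of 14 tested in the 1340 mg/kg/d and 11 of 14 in the 2680 mg/kg/d kidneys, where 50.3% and 50.8% of all tested genes were positive. In each 0 passed in edgeR (beside 0.12% and 0.4% of all tested genes) and DESeq2 called 0 (beside 1.26% and 1.53%). In each 1 had an unadjusted p under 0.05 (beside 8.94% and 11.1% of all tested genes). Their median log2 fold change was 0.10 at 1340 mg/kg/d and 0.09 at 2680 mg/kg/d, against 0.001 and 0.004 over all tested genes. Casr, the calcium sensing receptor, was at 0.32 (SE 0.123, adjusted p = 0.432) at 1340 mg/kg/d and 0.21 (SE 0.106, adjusted p = 0.483) at 2680 mg/kg/d. Vdr, the vitamin D receptor, was at 268, 247 and 246 CPM with water and 319, 291 and 294 CPM with NMN at 2680 mg/kg/d (0.24, SE 0.078, adjusted p = 0.256). The groups did not overlap, which held for 16.4% of tested genes in that comparison. Ptgs2, the inducible cyclooxygenase of the macula densa, had a negative value, with 1.21 ± 0.708 CPM in water mice and 0.660 ± 0.248 CPM in NMN mice at 2680 mg/kg/d (SD, n = 3 each), which overlap (-0.90, SE 0.456, adjusted p = 0.489). In liver 1 of 8 tested genes of this list passed in the mean NMN effect, beside 8.53% of all tested genes. It was Nr1h3, the liver X receptor alpha, which fell by 0.38 (SE 0.0982, adjusted p = 0.0224).

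Brush border genes other than the members (15 listed) were counted because Enpep, Mme and Anpep sit in the same membrane. Of the 15, 14 had negative fold changes in the 2680 mg/kg/d kidneys, with a median log2 of -0.21, where 50.8% of all tested genes were positive and their median was 0.004. In edgeR 0 passed (beside 0.4% of all tested genes), 8 had an unadjusted p under 0.05 (beside 11.1%), and DESeq2 called 2 (beside 1.53%). Slc5a2, the glucose transporter SGLT2, was at 238, 198 and 236 CPM with water and 121, 187 and 156 CPM with NMN (-0.54, SE 0.177, adjusted p = 0.324 in edgeR and 0.0370 in DESeq2). At 1340 mg/kg/d 11 of 15 were negative (50.3% of all tested genes were positive). There 0 passed in edgeR (beside 0.12%), 3 had an unadjusted p under 0.05 (beside 8.94%) and DESeq2 called 1 (beside 1.26%). Slc5a2 was the 1 of 15 called by edgeR in the mean effect over schedules in kidney, beside 1.39% of all tested genes, and it fell by 0.59 (SE 0.118, adjusted p = 0.0220). The summed level of 6 proximal tubule genes, led by Slc34a1 and all among the 15 just counted, was 6243 to 7858 CPM in the 2680 mg/kg/d NMN kidneys and 8385 to 8782 CPM in the water kidneys. At 1340 mg/kg/d it was 8989 to 9464 CPM with NMN and 9709 to 11380 CPM with water. The log2 fold changes of these 6 genes differed, from -0.54 to 0.05 at 2680 mg/kg/d. The part of tubule content in the peptidase values was not tested.

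Within groups the members did not vary as one unit. After the mean of each group was taken off, log2 CPM of Agt and Anpep ran in opposite directions over the 14 kidneys (Pearson's r = -0.855, Spearman's rho = -0.552), and Enpep and Anpep ran together (r = 0.770, rho = 0.534). Without the 3 2680 mg/kg/d NMN kidneys these were -0.597 and 0.452 over 11 libraries, so the strength of both rested in part on that group. Ace and Mme had r = 0.583 (0.492 in the 8 1340 mg/kg/d and 0.909 in the 6 2680 mg/kg/d kidneys). Ren1 stayed between -0.16 and 0.26 with every other member. The genes most like Ren1 in the kidney, of 13937 compared, were Hoxd9 (r = 0.912), Ptgis (0.910) and 2510016D11Rik (0.908). In liver Agt ran opposite to Mme (r = -0.606). The genes most like Agt there were Pin4 (0.877), Cript (0.864) and Dnase2a (0.852). These correlations are descriptions of 14 libraries that also share depth and composition. The genes named as most alike were picked as the highest of all those compared, and such picking raises r by itself.

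**Figure D4:**
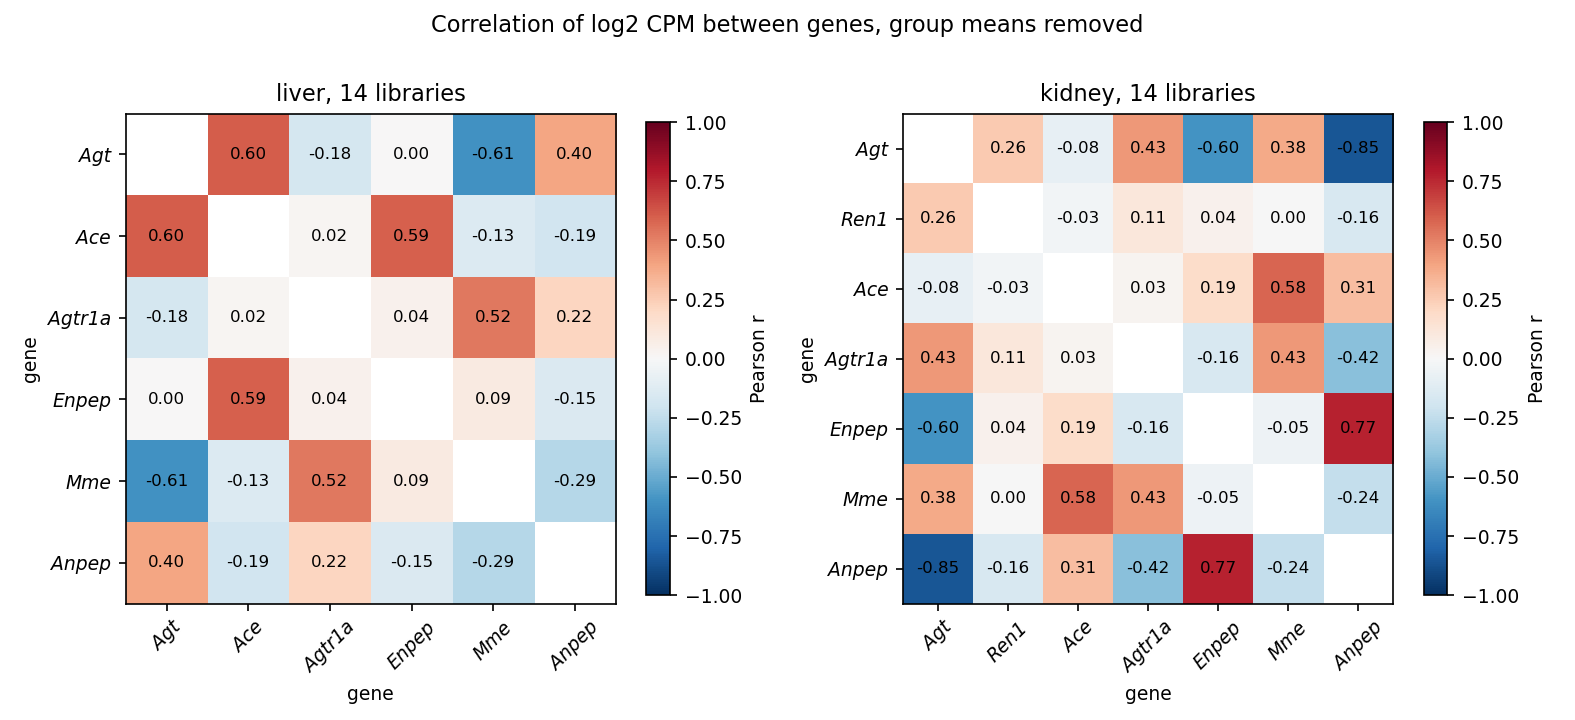
Pearson correlation between the members' log2 CPM over 14 livers and 14 kidneys after group means were removed, from blue (-1) to red (1). In kidney Agt and Anpep have the strongest negative value (-0.855) and Enpep and Anpep the strongest positive one (0.770), and the row of Ren1 is pale.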

How the data were processed

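Deposited files hold raw read counts per gene for each of the 28 libraries. According to the study's methods, the authors aligned polyA-selected reads with STAR to a genome they name mm19 and counted them with HTSeq-count, unstranded and in intersection-strict mode. The build could not be matched, so no coordinates of the files' build are given, and promoters come from RefSeq (GRCm38.p6). Gene names and exon lengths came from GENCODE (53229 of 54446 identifiers matched with version, 1180 with another version, 37 not at all). Between 7.14% and 20.2% of reads per library were not on one gene and were left out.

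CPM used all reads on genes as the total, and TPM used the union of exons. Counts were tested with edgeR 4.0.16 (R 4.3.3): filterByExpr, TMM factors, robust quasi-likelihood fit and Benjamini-Hochberg adjustment over all tested genes, with calls at an adjusted p under 0.05. NMN comparisons used the libraries of one organ and schedule. Mean NMN effects, differences between schedules and water comparisons used the 14 libraries of an organ, and the organ comparison the 14 water libraries with the schedule as a term. Alternatives were DESeq2 1.42.0, its size factors in edgeR, no filter, all 14 libraries in one fit, the replicate number as a block, each library left out and, chosen after seeing the data, library totals without TMM. The procedure was tested on simulated data. Replicate libraries came from separate mice and differed by more than counting error.

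All 8 members are named whatever their values. Of the other lists, genes called in an NMN comparison or among its 3 smallest p-values could be named. Genes most alike were the 3 with the highest correlation of log2 CPM (prior count 0.5, mean of at least 1 CPM). Members and lists were chosen with earlier results of these data known.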

Additional observations from a re-analysis of the deposited data

How the results depend on the processing

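The depth and 3 or 4 mice a group limited what could be seen: the 95% intervals of the members' NMN effects spanned from -0.95 to 1.22 (log2) where Ace in liver is left aside, and Ren1 in liver and Agtr1b in both organs could not be tested. The members' counts of calls stayed at 0 for NMN against water under most alternatives. DESeq2 called 1 member (Ren1) in the kidney at 2680 mg/kg/d and in the mean over schedules. Without a filter on low counts 1 member was called in the liver at 2680 mg/kg/d (Enpep, adjusted p = 0.0306), 1 in the kidney at 1340 mg/kg/d (Ren1, 0.00655), 1 in the kidney mean (Ren1, 4.67e-10) and 3 between the water kidneys (Agt, Ren1 at 0.000832 and Agtr1a at 0.0428). Over all genes the unfiltered fit called 1785 in the liver at 2680 mg/kg/d, against 883 with the filter. It called 269 against 18 in the kidney at 1340 mg/kg/d and 733 against 222 in the kidney mean. The cause of the added calls was not tested. Leaving out single libraries gave 0 to 2 members between the water kidneys: 0 without water mouse 1 or 3 at 2680 mg/kg/d, and 2 (with Agtr1a) without water mouse 2 or NMN mouse 4 at 1340 mg/kg/d. Kidney Ren1 ranged from 0.33 to 0.64 at 1340 mg/kg/d, from 0.49 to 0.91 at 2680 mg/kg/d and from 0.49 to 0.70 in the mean with 1 library left out, and the adjusted p in edgeR stayed above 0.05 in all of these fits.

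Same-numbered NMN and water libraries correlated at -0.18 to 0.28 in their deviations from the group means. In the liver at 2680 mg/kg/d all 3 pairs were positive, from 0.0655 to 0.278, and in no comparison were all pairs over 0.1, so the numbers were not taken to pair the mice. With the replicate block, edgeR called 1 member (Enpep in the liver at 2680 mg/kg/d, -0.52, adjusted p = 0.0343), the mean effect on kidney Ren1 had an adjusted p of 0.369, and all-gene calls were 16 and 1153 in liver and 75 and 92 in kidney at 1340 and 2680 mg/kg/d, and 2 for the kidney difference between schedules. A library's best correlation was with its own number for 5 of 6 libraries of the liver at 2680 mg/kg/d and for 0 of 6 of the kidney, and for 4 of 8 in each organ at 1340 mg/kg/d. Same-numbered liver and kidney libraries of water mice correlated at 0.0999 to 0.306 (7 of 8 best with their own number) at 1340 mg/kg/d and at 0.0837 to 0.248 (6 of 6) at 2680 mg/kg/d, and those of NMN mice at -0.0181 to 0.205 (5 of 8) and -0.0191 to 0.0352 (2 of 6), so the data do not settle whether they share mice. With the block between organs 6 members and 12012 genes were called, against 6 and 12133 without it. The block could not be fitted for water mice of different schedules.

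Calls over all genes moved more. For NMN in liver at 1340 mg/kg/d, 2 calls became 74 with DESeq2, 44 without the filter, 6 with all 14 libraries in one fit and 0 to 18 with a library left out. At 2680 mg/kg/d 883 became 1450, 1785 without the filter, and 211 to 1308. In kidney 18 became 159 with DESeq2, 269 without the filter and 5 to 67 at 1340 mg/kg/d, and 61 became 236, 514, 35 with all 14 libraries and 3 to 191 at 2680 mg/kg/d. Mean effects gave 629 to 1465 in liver with a library left out and 477 with DESeq2, 733 without the filter and 96 to 344 in kidney. The difference between schedules gave 98, 71 and 7 to 25 in liver, and 10, 106 and 0 to 1 in kidney (0 with library totals). Water mice gave 1179 with DESeq2 and 366 to 847 in liver, and 1787 to 3007 in kidney.

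Anpep between the organs turned to 0.45 with library totals, and Enpep (1.08) then passed the test. With library totals, Mme at 2680 mg/kg/d in liver was 0.0665, and between water mice Agt was -0.0458 and Anpep -0.00291 in liver, and Ace -0.139 and Anpep -0.0405 in kidney. These totals moved the median gene by 0.15 in the liver at 2680 mg/kg/d, 0.13 in the liver difference between schedules, and -0.14 (liver) and -0.17 (kidney) between water mice. The mean effect on liver Mme was -0.00123 with DESeq2, -0.00185 with its size factors and -0.00878 with the replicate block. With a library left out, liver values at 1340 mg/kg/d ran from -0.52 to 0.25 for Ace, -0.13 to 0.0921 for Enpep and -0.0967 to 0.22 for Mme, and at 2680 mg/kg/d from -0.22 to 0.0991 for Mme, -0.0933 to 0.12 for Agt and -0.0268 to 0.22 for Agtr1a. Kidney values ran from -0.20 to 0.0799 for Ace, -0.0556 to 0.13 for Enpep and -0.15 to 0.0120 for Agtr1a at 1340 mg/kg/d, and from -0.0856 to 0.12 for Mme and -0.12 to 0.30 for Anpep at 2680 mg/kg/d. Mean effects ran from -0.0845 to 0.0867 for liver Mme and -0.0133 to 0.20 for kidney Anpep, and water comparisons from -0.20 to 0.11 for Mme and -0.0103 to 0.21 for Agt in liver and -0.0612 to 0.18 for kidney Ace.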
